A study of Mus musculus with 4 samples.

Results

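The genes described here are the replication-linked histone genes, taken as every gene whose symbol starts with Hist1h, Hist2h, Hist3h or Hist4h. They number 67 of the 32285 genes in the deposited matrices. By their symbols, 6 encode the linker histone H1, 18 the core histone H2A, 18 H2B, 12 H3 and 13 H4. Of the 67, 65 had at least 1 count in the cells kept for analysis and 57 had 100 or more.

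Most histone protein is made while a cell copies its DNA, and the genes that supply it are clustered and switched on together in S phase. Their mRNAs usually end in a conserved stem-loop and carry no poly(A) tail. The stem-loop binding protein (SLBP) recognises that structure during processing, translation and decay. Some of these genes can also give poly(A)-tailed transcripts that end further downstream, which are known from cells that have left the cell cycle. Library chemistry that primes on poly(A) captures tailed transcripts directly, and untailed ones only where priming occurs inside the transcript.

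The samples were 4 single-cell RNA libraries, 1 per group, from the middle phalanx (P2) of digits of wild-type FVB/NJ mice aged 8 weeks. One library came from homeostatic, unamputated digits, and the others from fibrosing digits collected 12, 17 and 28 days post-amputation (dpa) at a level that does not regenerate. The labels give no transgene and no agent for any group. Live cells were sorted after enzymatic dissociation, and the libraries were made with 10x 3′ v3 chemistry. With 1 library per group there is no replicate error and no test: the 95% intervals given after values cover counting error only, and differences between days cannot be told apart from differences between libraries.

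The libraries held 8813 to 16045 barcodes and 92313847 to 197140774 unique molecular identifiers (UMIs). After filtering and doublet removal, 34949 cells were kept, with medians of 6657.5 to 11600.5 UMIs per cell (28 dpa lowest, unamputated highest). The labels give pooled male and female animals for each library, but the data do not show both sexes in any of them. At 12 dpa, Xist was at 458 CPM (the UMIs of a gene per 1000000 UMIs of the same cells) and 4 Y-linked genes together at 0.228, while the other 3 libraries had Y-linked genes at 244 to 350 and Xist at 0.154 or below. The 12 dpa library therefore differs from the others in sex as well as in day. Pairs of libraries shared 19 to 87 barcodes. Cells were sorted into 19 classes, 17 of them named from markers ("X-like") and the others left unnamed, and 70 sums of a class in a library held 50 or more cells.

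The features that set these mRNAs apart can be read in the reference transcripts. In the GENCODE M21 annotation of GRCm38, all 67 genes were found under the same symbols: 54 on chromosome 13, 10 on chromosome 3, 2 on chromosome 11 and 1 on chromosome 6. A stem-loop with 6 base pairs and a loop of 4 bases was present in the annotated transcript of 45 genes, and 25 of these had the commonest variant. Stem-loops of 4 genes are shown as DNA, 5′ to 3′ on the transcript's strand, with the stem-loop in capitals and 5 bases on each side, since these 4 genes behaved differently in the cells below. All 4 lie downstream of the stop codon, in the 3′ UTR of a single-exon gene.
Hist1h3c: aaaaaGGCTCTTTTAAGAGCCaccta
Hist1h4d: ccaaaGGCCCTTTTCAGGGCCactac
Hist1h1c: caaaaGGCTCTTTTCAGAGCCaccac
Hist3h2a: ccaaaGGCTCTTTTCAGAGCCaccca
They lie at chr13:23745042-23745067 (minus strand), chr13:23581945-23581970 (plus), chr13:23739507-23739532 (plus) and chr11:58955167-58955192 (plus), in that order. Hist1h1c and Hist3h2a have the same 16 bases as each other. The capitals of Hist1h4d differ from them within the stem, and those of Hist1h3c within the loop.

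What follows the stem-loop differs between the genes. The annotated transcript ended within 100 bases of the stem-loop in 22 genes and ran further in 23. A poly(A) signal (AATAAA or ATTAAA) lay in the last 50 bases of the annotated transcript of 17 genes, of which 13 also had the stem-loop. Windows of 30 bases with the signal in capitals are shown for 4 genes that turned out to be nearly as high, or higher, outside S phase.
Hist1h1c: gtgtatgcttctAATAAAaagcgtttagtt
Hist3h2a: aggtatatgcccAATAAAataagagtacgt
Hist1h4i: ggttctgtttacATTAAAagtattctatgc
Hist2h3c1: ttttttaatcccAATAAAaatttaacacac
These windows are at chr13:23740330-23740359 (plus strand), chr11:58956785-58956814 (plus), chr13:22040639-22040668 (minus) and chr3:96248475-96248504 (plus). The annotated transcript of Hist1h1c runs 840 bases beyond its stem-loop, that of Hist3h2a 1643, that of Hist1h4i 330 and that of Hist2h3c1 1167. Hist1h3c, in contrast, is annotated to end 74 bases beyond its stem-loop and has no signal in its last 50 bases.

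The promoters of the group share short motifs. Of the 67 genes, 62 were matched to RefSeq promoters of GRCm38.p6, with 63 promoters in all, each covering 250 bases before and 50 after the start. TATAAA, searched like the others on both strands, was in 55.6% of them against 13.6% of all 32851 promoters, and CCAAT in 85.7% against 37.4%. CCAAT was in every H1, H2A, H2B and H3 promoter matched and in 25% of H4 promoters. The octamer ATTTGCAT was in 38.9% of H2A and 41.2% of H2B promoters and in none of the H1, H3 or H4 promoters, against 1.74% of all promoters. AAACACA, known from H1 promoters, was in 83.3% of the H1 promoters and 7.18% of all. The 250 bases before the start are shown for the H1 gene that tracked S phase most closely among abundant members, and for an H2A gene that did not, with these motifs in capitals on either strand.
Hist1h1b: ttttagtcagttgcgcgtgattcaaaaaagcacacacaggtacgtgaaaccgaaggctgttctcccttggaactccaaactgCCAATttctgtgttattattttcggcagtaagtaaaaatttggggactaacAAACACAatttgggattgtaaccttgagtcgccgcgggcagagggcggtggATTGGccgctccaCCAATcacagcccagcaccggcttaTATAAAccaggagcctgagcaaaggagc
Hist3h2a: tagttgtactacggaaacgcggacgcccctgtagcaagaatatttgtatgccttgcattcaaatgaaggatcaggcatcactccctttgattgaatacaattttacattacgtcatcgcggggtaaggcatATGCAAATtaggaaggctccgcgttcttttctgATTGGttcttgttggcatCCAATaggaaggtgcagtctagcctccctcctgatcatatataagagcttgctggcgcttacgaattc
The Hist1h1b bases are chr13:21780626-21780875 (minus strand) and the Hist3h2a bases chr11:58954435-58954684 (plus strand). Both carry CCAAT on both strands. Only Hist1h1b of this pair has TATAAA and AAACACA in the window, and only Hist3h2a has the octamer, on the reverse strand.

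The question put first to the cells was how closely each histone gene follows DNA replication. Cells with at least 3000 UMIs (31200 of the kept cells) were thinned to 3000 UMIs and grouped by their UMIs from a list of 27 S-phase genes, such as the Mcm2 to Mcm7 helicase subunits and Pcna, the polymerase clamp. None of the 67 genes is on that list. Summed over all 67, histone CPM were 277 (274 to 279) in the 16438 cells with no S-list UMI and 2851 (2828 to 2875) in the 1190 cells with 6 or more, a ratio of 10.3 (10.2 to 10.4). The ratio was 8.64 (8.46 to 8.82) in the unamputated library. In the libraries of days 12, 17 and 28 it was 10.3, 12.2 and 12.8, with intervals of 10.0 to 10.5, 11.9 to 12.5 and 12.5 to 13.1. With 0, 1 and 2 S-list UMIs the sum was 277, 303 and 372 CPM, and with 3 to 5 it was 1021. At 12 dpa it was already 525 with 2 UMIs against 317 with none.

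The S-phase list alone did not mark the cells high in histone UMIs. Among cells with 6 or more S-list UMIs, those with 3 or more UMIs from a list of 38 G2M genes had 3960 histone CPM (3927 to 3992, 791 cells). Those with no G2M UMI had 240 (219 to 261, 153 cells), an interval that overlaps that of cells with no UMI from either list (259.8, 257 to 262). Cells with 3 or more G2M UMIs and no S-list UMI had 496 (481 to 511). Histone counts were thus highest where each list had 3 or more UMIs. The same held within 1 class: basal keratinocyte-like cells with 6 or more S-list UMIs had 4622 histone CPM (4569 to 4675) with 3 or more G2M UMIs and 302 (265 to 342) with none. The size of the difference varied by class. S-high cells had 19.7 times the histone CPM of S-zero cells among neutrophil-like cells, 6.88 times among basal keratinocyte-like and 2.09 times among fibroblast-like cells. Among smooth muscle-like cells it was 0.987 times (0.809 to 1.19), with 60 S-high cells.

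**Figure D1:**
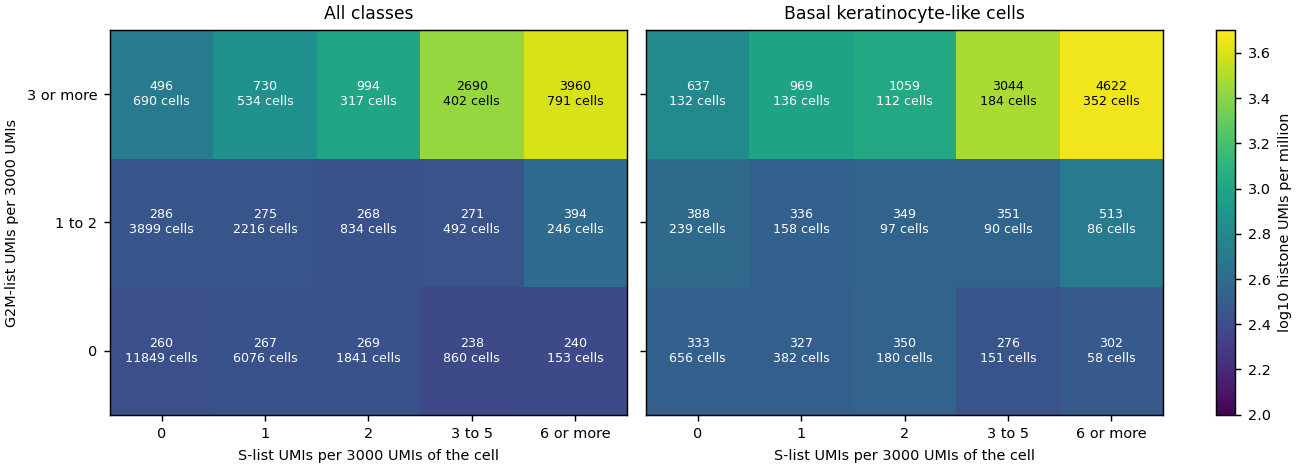
Summed histone CPM (number in each square and colour, log10 scale) for cells grouped by S-phase list UMIs (x axis) and G2M list UMIs (y axis) after thinning to 3000 UMIs, for all classes and for basal keratinocyte-like cells, with the number of cells in each square. The squares with 3 or more S-list and 3 or more G2M UMIs stand out, at 2690 and 3960 for all classes, while the whole bottom row stays between 238 and 269.

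Single genes were then compared between S-high cells (3 or more S-list UMIs, 2944 cells) and S-zero cells (none). The cut is a point in a range: 1055 cells had exactly 3 UMIs and 2992 had 2. Of the 57 genes with 100 or more UMIs, 50 were 2-fold or more higher in S-high cells, 32 of them 10-fold or more, and 7 were under 2-fold. No share over all genes is given for this rule, under which a gene can reach 100 UMIs mostly through S-high cells. Of 12039 genes of any kind at 5 CPM or more in either set of cells, 6.42% were 2-fold or more higher in S-high cells and 5.3% lower. By that rule, 37 histone genes were tested, 33 were higher and 0 lower, with a median log2 ratio of 2.75 against 0.03 over all genes tested. Only 6 of the 37 reached 5 CPM in S-zero cells, and 2 of those 6 were 2-fold higher. The other 31 entered through their level in S-high cells, so their count is not a measure of how often histone genes differ.

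**Figure D2:**
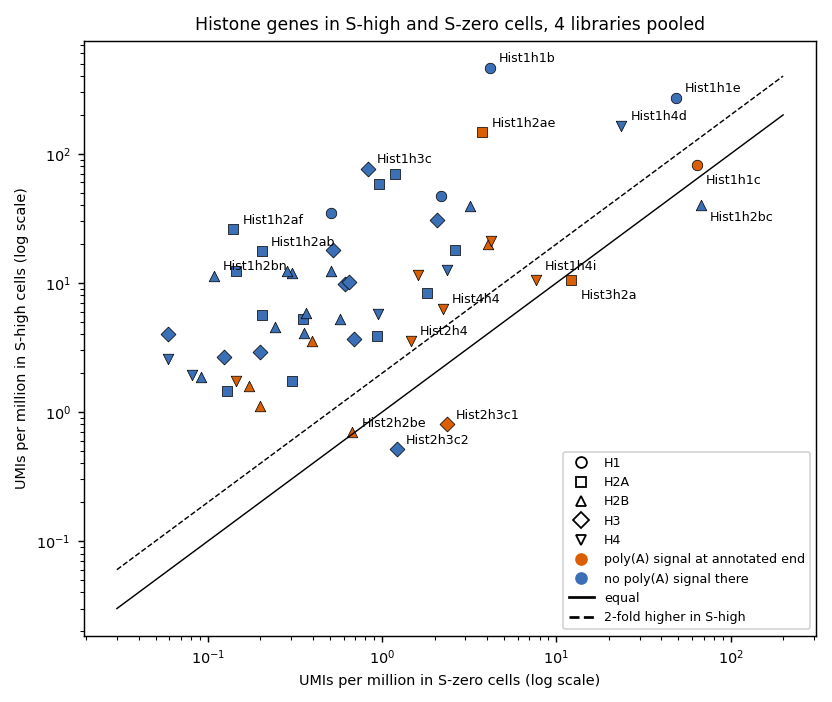
CPM of each histone gene with 100 or more UMIs in S-zero cells (x axis, log scale) and S-high cells (y axis, log scale), 4 libraries pooled, with marker shape for the family and orange for a poly(A) signal in the last 50 bases of the annotated transcript. Genes above the dashed line are 2-fold or more higher in S-high cells, and the 7 below it are Hist2h3c1, Hist2h3c2, Hist1h2bc, Hist3h2a, Hist2h2be, Hist1h1c and Hist1h4i.

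The H1 genes, whose products bind the linker DNA between nucleosomes, held the most UMIs, and the ratios of the 3 described here ran from 1.29 to 112. Hist1h1b was at 464 CPM in S-high and 4.13 in S-zero cells, a ratio of 112 (104 to 121), and the ratio was 67.7, 87.3, 218 and 193 in the unamputated, 12, 17 and 28 dpa libraries. Hist1h1e was at 272 against 48.4 CPM, a ratio of 5.63 (5.48 to 5.79). Hist1h1c was at 82.4 against 63.9 CPM, a ratio of 1.29 (1.24 to 1.34), and it was the second most abundant histone gene with 24893 UMIs. The H1 gene seen almost only in S-high cells and the H1 gene seen nearly equally in both thus had similar totals, 12.98% and 13.8% of all histone UMIs. Hist1h1e overlaps Hist1h2be on the same strand, so counts of this pair may be split between them.

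The H2A and H2B genes, which encode the outer core histones, divided in the same way. Hist1h2ae was at 147 CPM in S-high and 3.76 in S-zero cells, a ratio of 39.2 (36.3 to 42.4), and Hist1h2af had the highest ratio of all 57, at 186 (126 to 286), from 26.0 against 0.140 CPM. Among the other H2A and H2B genes the next were Hist1h2bn with 106 and Hist1h2ab with 86.1. Much of the sequence near the transcript end also occurs in other genes for Hist1h2af (76.2%), Hist1h2bn (82.9%) and Hist1h2ab (69.2%). Reads from them may be discarded or assigned to a near-identical copy, so their counts and ratios are uncertain. Hist1h2bc was lower in S-high cells: 40.2 CPM in S-high and 67.2 in S-zero cells, a ratio of 0.598 (0.569 to 0.629). It was under 1 in each library, from 0.497 at 28 dpa to 0.754 in the unamputated library. Hist3h2a was at 10.4 against 12.2 CPM, a ratio of 0.856 (0.773 to 0.947), and Hist2h2be at 0.695 against 0.674. These 3 genes differ in their annotated ends: Hist3h2a and Hist2h2be have the poly(A) signal, while Hist1h2bc is spliced (2 exons, chr13:23684199-23692908, plus strand) with no stem-loop in its annotated transcript.

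Among the H3 and H4 genes, which encode the inner core pair, Hist1h3c was at 76.9 CPM in S-high and 0.825 in S-zero cells, a ratio of 93.2 (79.3 to 110). Hist2h3c1 and Hist2h3c2 had the lowest ratios of the 57, 0.343 (0.24 to 0.48) and 0.423 (0.26 to 0.65), at 2.35 and 1.22 CPM in S-zero cells. The whole tail of Hist2h3c1 is shared with an overlapping predicted gene, Gm20634, which leaves its count uncertain. Hist1h4d, the most abundant H4 gene, had 165 against 23.6 CPM, a ratio of 7.01 (6.75 to 7.28), and Hist1h4i had 10.4 against 7.65, a ratio of 1.36 (1.23 to 1.52). The 7 genes under 2-fold were under 2-fold in each of the 4 libraries taken alone, and 49 of the 50 others were 2-fold or more in each. The exception was Hist4h4, at 1.97 in the unamputated library. Among the 49, 2 had 0 UMIs in the S-zero cells of 1 library, where 3 counts over those cells were taken in their place.

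The ratio varied with the annotated end of the transcript, which the choice of genes did not use. Of the 15 genes with 100 or more UMIs and a poly(A) signal at the end, 5 were under 2-fold and the median ratio was 5.01. Of the 42 without one, 2 were under 2-fold and the median was 17.4. The 18 genes annotated to end within 100 bases of the stem-loop had ratios from 4.62 to 93.2, with a median of 19.5 and none under 2-fold. The 22 that run further had ratios from 0.343 to 39.2, with a median of 5.51 and 5 under 2-fold. The 17 with no stem-loop in the annotated transcript had the highest median, 34.3, a range of 0.598 to 186, and 2 under 2-fold. Genes with the signal made up 37.9% of histone UMIs in S-zero cells and 17.3% in S-high cells. The groups overlap widely: Hist1h2ae, with the signal, has a ratio of 39.2. Of the 22 genes with no stem-loop in this annotation, most have a transcript annotated to end at the stop codon, and sequence beyond the annotated ends was not analysed here.

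Within basal keratinocyte-like cells alone (921 S-high, 1027 S-zero), 41 histone genes were tested, 37 were 2-fold or more higher in S-high cells (5.37% of all genes) and 1 lower (3.24% of all genes). The lower one was Hist1h2bc, with a ratio of 0.417. Of the 11 genes that reached 5 CPM in S-zero cells of this class, 7 were higher. Hist1h1b had a ratio of 44.6 and Hist1h1c 1.34. Hist3h2a had 1.19 here, on the other side of 1 from its ratio over all cells.

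Over whole libraries, the summed histone genes were at 422 CPM (419 to 426) in the unamputated library. In the amputated libraries they were at 545, 516 and 507 CPM on days 12, 17 and 28, with intervals of 539.7 to 550.3, 511 to 522 and 502 to 512. All 3 amputated libraries were higher, by 0.37, 0.29 and 0.26 on the log2 scale. The 50 genes 2-fold higher in S-high cells were at 0.40, 0.28 and 0.13 at 12, 17 and 28 dpa, and the 7 genes under 2-fold at 0.30, 0.31 and 0.53. The S-phase list was lower in all 3, at -0.25, -0.17 and -0.35, and the G2M list was at 0.05, -0.19 and 0.12. Histone UMIs per S-list UMI, which also count genes seen outside S phase, were 0.893 (0.883 to 0.903) in unamputated digits and 1.37, 1.23 and 1.36 at 12, 17 and 28 dpa. Depth, sex of the 12 dpa library and class makeup differ between these libraries, and their part in the difference was not tested beyond the settings in the closing section. Removal of doublets bears on these ratios. The share of barcodes removed was 12.8% in the unamputated library and 7.05%, 8.41% and 12.2% at 12, 17 and 28 dpa, and Scrublet's own threshold would have removed 2.11% to 4.24%. The removed barcodes were richer in histone UMIs than kept cells in each library. With no doublets removed the 3 log2 ratios were 0.13, 0.072 and 0.13.

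Few single genes differed by 2-fold. Of the 57 genes with 100 or more UMIs, the counting interval of the ratio to unamputated lay above 1 in 21, 20 and 19 at 12, 17 and 28 dpa, against 20.1%, 23.5% and 24.2% of the 17904 genes of any kind with 100 or more UMIs. It lay below 1 in 7, 14 and 12 of the 57, against 55.4%, 46.9% and 54.6% of all these genes. At 12 dpa, 1 of 16 histone genes tested was 2-fold or more higher than unamputated (0.739% of all genes) and 0 lower (2.93% of all genes), with a median log2 ratio of 0.34 against -0.22 over all genes. At 17 dpa, 0 of 18 were higher (1.2%) and 3 lower (2.06%), with medians of 0.31 against -0.10. At 28 dpa, 0 of 16 were higher (1.88%) and 2 lower (6.55%), with medians of 0.24 against -0.17. These calls use ratios with a pseudocount of 1 CPM, so a gene near 5 CPM can be over 2-fold in plain CPM and not be called. The 3 comparisons share the unamputated library. The other 49 to 51 histone genes were below 5 CPM in both libraries compared.

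Hist1h4d was the gene called 2-fold higher at 12 dpa. It was at 25.8 CPM (24.9 to 26.6) unamputated, 67.5 (65.6 to 69.4) at 12 dpa, 50.6 at 17 dpa and 41.1 at 28 dpa, ratios of 2.62, 1.96 and 1.60. At 12 dpa it was higher than unamputated in all 16 classes compared, with the counting interval above 1 in 15 of them. These include smooth muscle-like cells, with 20.1 against 60.5 CPM, where S-phase counts were low. Hist1h1e was likewise higher in all 16 classes, with 62.1 CPM unamputated and 94.4 at 12 dpa. Hist2h2bb, an H2B gene, was among the 3 highest ratios on each day, at 5.30 CPM unamputated and 10.6, 11.3 and 7.67 at 12, 17 and 28 dpa. Hist1h1d, an H1 gene, was at 6.65, 11.4, 8.37 and 7.4 CPM, with its highest value at 12 dpa. Without Hist1h1e and Hist1h4d the log2 ratios of the sum were 0.20, 0.17 and 0.23 at 12, 17 and 28 dpa.

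The genes 2-fold or more lower after amputation were H2A genes. Hist1h2ae was at 32.7 CPM unamputated and 18.9, 12.4 and 15.2 at 12, 17 and 28 dpa, and Hist1h2ak at 12.7 and then 7.05, 4.24 and 5.54. Hist1h2ap was at 11.8, 9.70, 3.73 and 13.2, lowest in the 17 dpa library. Among the 3 lowest ratios on single days were also an H4 and an H2B gene at low levels. Hist1h4n was at 2.07 CPM unamputated and 1.11 at 12 dpa, and Hist1h2bj at 2.21 unamputated and 1.27 at 28 dpa. Neutrophil-like cells, led by granule genes and with no cells in that cluster at 12 or 28 dpa, had Hist1h2ae at 186 CPM unamputated and 36.7 at 17 dpa. Within basal keratinocyte-like cells, Hist1h2ae was at 116, 53.8, 59.2 and 66.4 CPM in the 4 libraries and Hist1h2ap at 40.8, 31.7, 20.1 and 62.7. The 18 H2A genes together were at 87.1, 67.7, 53.2 and 65.8 CPM, while the 18 H2B genes were at 70.3, 102, 102 and 114. H2A was the only family of the 5 lower in each amputated library. Without Hist1h2ae and Hist1h2ak, left out after their values were seen, the other H2A genes were at 41.7, 41.7, 36.6 and 45.0 CPM. These others were thus still lower at 17 dpa, with a log2 ratio of -0.18 (-0.25 to -0.12), but level at 12 dpa and higher at 28 dpa. Hist1h2ap shares its whole tail with other H2A genes, so its count is uncertain.

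The makeup of histone mRNA also differed between libraries among S-high cells. Most of these were not high in histone UMIs. Only 402 cells with 3 to 5 and 791 with 6 or more S-list UMIs also had 3 or more G2M UMIs. Another 860 and 153 had no G2M UMI, at 238 and 240 histone CPM. The 492 and 246 with 1 to 2 G2M UMIs were at 271 and 394 CPM. The class makeup of S-high cells differed too. Basal keratinocyte-like cells were 28.1%, 21.5%, 27.6% and 47.5% of S-high cells in the unamputated, 12, 17 and 28 dpa libraries. Neutrophil-like cells were 6.04% in the unamputated library and 3.08% at 17 dpa, and the part of class makeup in the values that follow was not tested. In S-high cells, Hist1h2ae made up 13.3% of histone UMIs in unamputated digits and 5.67%, 4.09% and 5.67% at 12, 17 and 28 dpa. Hist1h4d made up 5.90%, then 12.1%, 10.2% and 8.75%, and Hist1h1b 21.6%, 23.8%, 27.9% and 27.6%. Hist1h2ap made up 4.97%, 3.17%, 1.32% and 5.12%. Hist1h1c kept a share of 4.19% to 4.54% in all 4 libraries.

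**Figure D3:**
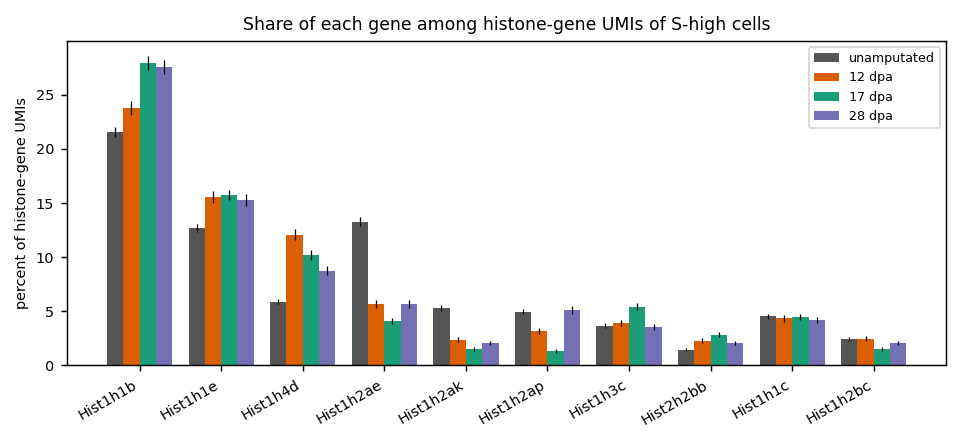
Percent of all histone-gene UMIs taken by each of 10 genes in S-high cells (y axis), with 1 bar per library and 95% Clopper-Pearson intervals. Hist1h2ae and Hist1h2ak are highest in the unamputated library, Hist1h4d is lowest there, and Hist1h2ap is lowest at 17 dpa.

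By cell class, basal keratinocyte-like cells had 1038, 1345, 1830 and 1438 CPM in the unamputated, 12, 17 and 28 dpa libraries. They had the highest sum in each amputated library, while in the unamputated library neutrophil-like and B-lineage-like cells were higher. The class holds 2 clusters that ran opposite ways. The cluster led by Krt14, Krt5 and Col17a1 had 922, 911, 2066 and 1812 CPM, close to unamputated at 12 dpa and higher on the later days. The cluster led by Krt15, Krt17 and Lgr5 had 1261, 2408, 1003 and 703 CPM, higher at 12 dpa and lower than unamputated at 17 and 28 dpa. Neutrophil-like cells led by the granule genes Camp, Ngp and Ltf had 1427 and 1342 CPM in the unamputated and 17 dpa libraries, and the other libraries held no cells of that cluster. B-lineage-like cells had 1111 CPM in the unamputated library and 420 and 303 at 17 and 28 dpa. The lowest sum was in unamputated smooth muscle-like cells, at 176 CPM. In the unamputated library 32.0% of basal keratinocyte-like cells, 14.0% of neutrophil-like cells and 3.75% of smooth muscle-like cells were S-high. T or NK-like cells had a high share, 24.8%, beside a sum of 457 CPM, so the order of the sums is not that of the shares. A sum per class cannot tell more cycling cells from more histone mRNA per cycling cell.

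**Figure D4:**
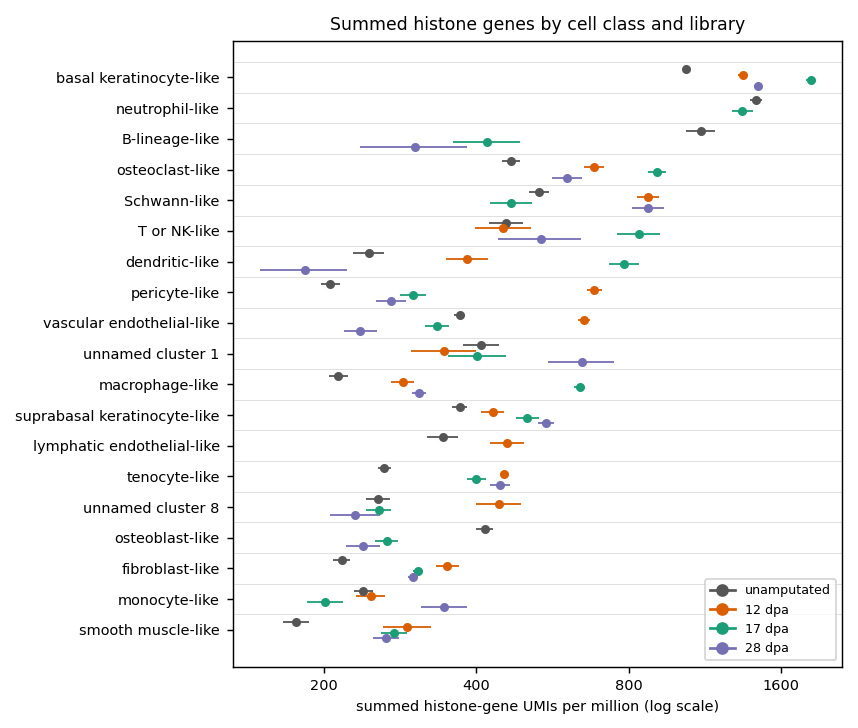
Summed histone-gene CPM (x axis, log scale) by cell class, with 1 point per library and 95% Poisson intervals (counting error only), for sums over 50 or more cells. Basal keratinocyte-like, neutrophil-like and unamputated B-lineage-like cells lie above 1000, and pericyte-like cells at 12 dpa and macrophage-like cells at 17 dpa lie apart from the same class in the other libraries.

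Pericyte-like cells, the mural cells of small vessels, were high at 12 dpa: 206 CPM (196.9 to 215) unamputated, 684 (661 to 708) at 12 dpa, 300.2 at 17 dpa and 271 at 28 dpa. Of 18 histone genes tested in this class, 14 were 2-fold or more higher at 12 dpa (1.79% of all genes) and 0 lower (1.63% of all genes). The higher ones include 3 of the 6 that reached 5 CPM in unamputated cells. Hist1h1b was at 6.31 and 101 CPM. The S-phase list was at 409 and 562 CPM and the G2M list at 260.5 and 812 in the same cells. The log2 ratio of the sum was 1.73, and 0.92 with no doublets removed. Vascular endothelial-like cells were also highest at 12 dpa, with 371, 652, 334 and 236 CPM.

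Macrophage-like cells were high at 17 dpa, with 213, 286, 641 and 308 CPM, and 16 of 22 histone genes tested were 2-fold or more higher than unamputated (3.47% of all genes) and 0 lower (1.88% of all genes). The higher ones include 2 of the 6 that reached 5 CPM there. Different clusters hold this class in the libraries: most unamputated and 12 dpa cells lay in one, and most 17 and 28 dpa cells in another led by F13a1, Pf4 and Folr2. In that second cluster the sum was 241 CPM unamputated, 886 at 17 dpa and 309 at 28 dpa, and in the first it was 210.2 unamputated and 220 at 17 dpa. The difference therefore lay in 1 cluster. The log2 ratio of the class was 1.58, and it was 0.05 under the stricter cell filter, 0.64 at a cluster resolution of 2 and 1.12 at 0.5. Under the stricter filter and at a resolution of 2, a cluster with Lyve1, Pf4 and Folr2 among its leading genes was left unnamed. It held 1481 and 1401 cells, so the values of 0.05 and 0.64 cover different cells.

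Tenocyte-like and fibroblast-like cells showed a different kind of difference. The tenocyte-like class is a single cluster led by C1qtnf3, Tnn and Col11a1, with Col24a1 and Kif26b also among its leading genes. Under a looser cell filter a cluster led by Col24a1 and Kif26b was named fibroblast, so the line between these names depends on the setting. In tenocyte-like cells the sum was 263, 453, 399.8 and 445 CPM. The 7 genes under 2-fold in S-high cells were at 141, 179, 271 and 345 CPM, while the 50 others were at 122, 273, 128 and 100.4. At 12 dpa both sets were higher than unamputated, and at 28 dpa only the first was. Of 10 histone genes tested at 28 dpa, 4 were 2-fold or more higher (4.92% of all genes), namely Hist1h1c, Hist1h2bc, Hist1h4h and Hist1h4i, and 2 were lower (8.78%), Hist1h1b and Hist1h2ae. Of the 10, 8 reached 5 CPM in unamputated cells, and Hist1h4h, at 3.52 CPM there, passed only through its level at 28 dpa. The S-phase list in these cells was at 254 CPM unamputated and 172 at 28 dpa. In fibroblast-like cells the first set was at 134, 170, 182 and 211 CPM and the second at 82.4, 180, 124 and 88.5. The log2 ratio of the class sum at 28 dpa was 0.47, and it was -0.14 with no doublets removed.

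Hist1h2bc was the most abundant of the 7 genes in tenocyte-like cells at 28 dpa. In tenocyte-like cells it was at 60.1 CPM (56.5 to 63.8) unamputated, 83.0 at 12 dpa, 157 at 17 dpa and 184 (170.6 to 197.5) at 28 dpa. At a cluster resolution of 2, looked at after seeing the data, the cells of this class fell mostly into 3 clusters held unequally by the libraries. The first, led by Fmod, C1qtnf3 and Ecrg4, held 184 unamputated and 242 28 dpa cells of the class, and Hist1h2bc was at 79.6 (71.8 to 88.0) and 149 (134.1 to 165.0) CPM in them. The second, led by Kif26b, Col24a1 and Fbn2, held 434 unamputated cells, at 42.3 CPM, and 7 at 28 dpa. In the third, left unnamed and led by Crabp2, Nupr1 and Inhba, 45 unamputated and 106 28 dpa cells were at 134 and 253 CPM. Within the first and the third cluster the difference had the same direction as in the class and was smaller. In suprabasal keratinocyte-like cells it was at 62.3, 74.5, 72.4 and 113. In fibroblast-like cells it was at 52.0, 78.7, 79.9 and 108, mostly in 3 clusters, with 41 cells in a further one. The cluster led by Ccn3, Sema3e and Scara5 went from 44.4 CPM unamputated to 121 at 28 dpa, and from 285 of 686 to 1507 of 2439 fibroblast-like cells. The cluster led by Gdf10, C4b and Apod went from 38.6 to 43.5, and the one led by Hcn4, Itih5 and Sbspon from 126 to 147. Over whole libraries it was at 46.2, 67.8, 68.4 and 88.2 CPM, a ratio of 1.91 (1.85 to 1.98) at 28 dpa. At 28 dpa it was higher than unamputated in 15 of 17 classes, with the interval above 1 in 13. Osteoblast-like cells were an exception, with 42.2 CPM unamputated and 28.6 at 28 dpa, and vascular endothelial-like cells peaked at 12 dpa instead, with 19.5, 40.5, 23.3 and 17.3. Fewer UMIs per cell at 28 dpa go with this difference, and their part was not tested.

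Hist1h1c had the narrowest range over the 70 class sums among the 6 most abundant histone genes. Its lowest class sum was 24.5 CPM, in monocyte-like cells at 12 dpa, and its highest 126, in tenocyte-like cells at 28 dpa. Hist1h1b ranged from 0 in B-lineage-like and dendritic-like cells at 28 dpa to 471 in basal keratinocyte-like cells at 17 dpa. In tenocyte-like cells Hist1h1c was at 60.3, 70.6, 84.7 and 126 CPM. Hist1h4i, Hist1h2be and Hist1h2bc were highest in an unnamed cluster of shallow cells led by Ccrl2, Cxcl2 and Il1b, which had most in common with the neutrophil markers and was left unnamed for its depth. There Hist1h4i was at 56.0, 42.0, 49.3 and 107 CPM and Hist1h2bc at 119, 115, 153 and 257, with an S-phase list at 141 to 220 CPM.

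**Figure D5:**
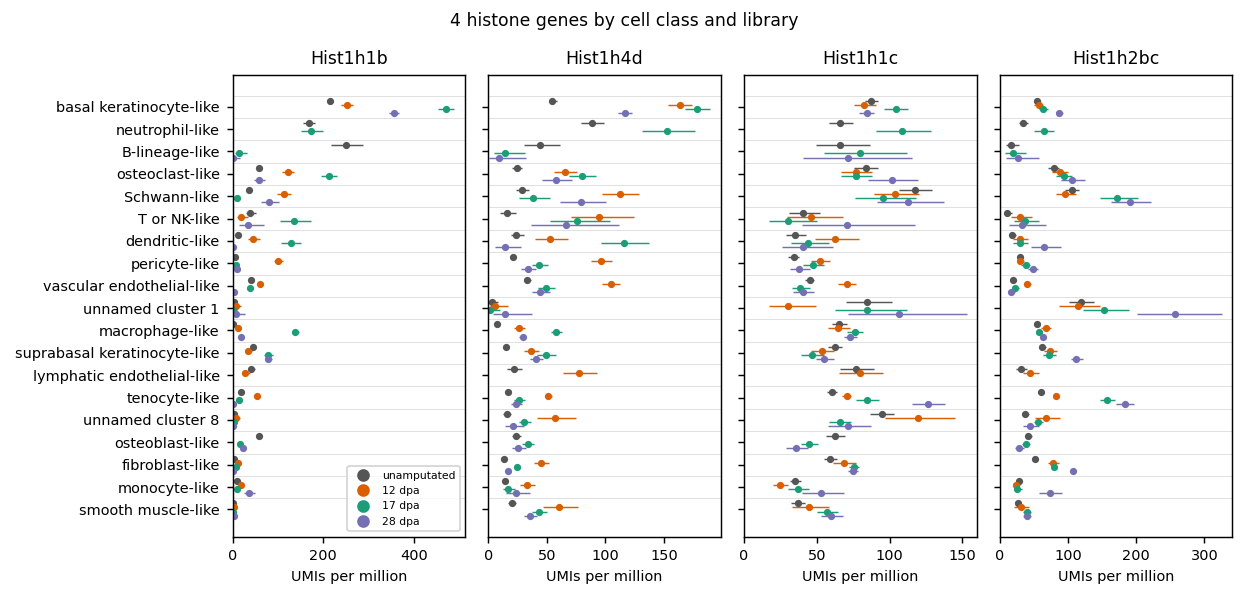
CPM of Hist1h1b, Hist1h4d, Hist1h1c and Hist1h2bc (x axis, linear) by cell class, with 1 point per library and 95% Poisson intervals. Hist1h1b is high in few classes, Hist1h4d is higher at 12 dpa than unamputated in all 16 classes compared, and Hist1h2bc in tenocyte-like cells runs from 60.1 unamputated to 184 at 28 dpa.

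The genes that supply and process histones were set beside these values. In this comparison of S-high and S-zero cells, 6.42% of all genes tested were 2-fold or more higher in S-high cells. Of 18 genes for histone mRNA processing and histone chaperones, 17 were tested, and 8 were 2-fold or more higher in S-high cells. Slbp, which encodes the stem-loop binding protein, was at 102 against 31.0 CPM, and the chaperone gene Nasp at 214 against 67.1. Of 11 genes for replacement variants, which are made outside S phase as well, 4 were 2-fold or more higher, namely H2afz, H2afx, H1fx and Cenpa. H2afz was at 1170.4 against 397 CPM. H3f3b, an H3.3 gene, was not among the 4, at 1478 against 1058. Over whole libraries the processing list was at 612, 586, 587 and 610.4 CPM, a narrower range than the histone sum. The 5 genes with class and library profiles most like the summed histone genes, by Pearson's r of log2 CPM over 70 sums that share libraries and depth, were Dlgap5 (0.82), Neil3 (0.80), Knl1 (0.79), Ube2c (0.79) and Kif15 (0.78).

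The remaining genes were scarce. Of the 67, 10 had fewer than 100 UMIs and together reached at most 0.944 CPM in any library. Hist1h2bq and Hist1h4m had 0 UMIs in kept cells, which allows up to 0.00804 CPM over all of them (3 counts). In 36 of the 67 genes, at least 50% of the 60-base words in the last 400 bases of the transcript also occur in another gene, so reads from them may be discarded or assigned to a near-identical copy. The 6 most abundant genes held 69.1% of histone UMIs.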

How the data were processed

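Counts of UMIs per gene and barcode were used as deposited by the authors, who made them with Cell Ranger 7.1.0 on mm10, per the submitters' processing notes; the annotation and cell-calling settings are not given in the sources used here. The cell filter asked for 500 genes, 1000 UMIs and a mitochondrial share of 10% or less. In each library the barcodes ranked top by Scrublet were taken out as doublets, 0.8% for each 1000 barcodes (7.05% to 12.8% in all). Cells were clustered jointly (scanpy 1.11.5, Leiden resolution 1, 2000 variable genes, 30 components) without the histone genes, cell-cycle, processing and variant lists, sex-linked and mitochondrial genes. A cluster took a class name with 3 or more of its markers detected, unless its leading genes or depth spoke otherwise. Sums were expressed as CPM of the same cells. Log2 ratios used a pseudocount of 1 CPM, and genes needed 5 CPM in either sum to be tested at 2-fold. Intervals are exact (Poisson for sums, conditional binomial for ratios, Clopper-Pearson for shares) at 95%.

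The histone genes and all lists were chosen with earlier results of these data known. Genes are named if among the 15 with most UMIs, the 3 highest or lowest ratios to unamputated per day (50 UMIs or more), the 5 highest or lowest S-high ratios (100 UMIs or more), or described for a sequence feature. Calls were tested on simulated counts for 12 dpa against unamputated over 32285 genes: 100 of 100 genes raised 4-fold and 100 of 100 lowered 4-fold were recovered, with 0 of 11583 unchanged genes called. These counts were Poisson draws from a shared profile, with no variance between libraries, and the changed genes lay above 5 CPM. They do not test a 2-fold change and give no error rate for calls between single libraries. Alternatives covered the filter, doublets, cluster resolution, averaging, pseudocount, thinning depth, S-phase list and genes of shared sequence; 5 were added after seeing the data.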

Additional observations from a re-analysis of the deposited data

Results flagged for a closer look

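At 17 and 28 dpa some cell classes had higher and others lower summed histone genes than in the unamputated library, each beyond counting error, and the class farthest in each direction is given here. With 1 library per group the difference between classes was not tested. B-lineage-like cells had a log2 ratio of -1.40 at 17 dpa and -1.87 at 28 dpa, from 202 cells unamputated, 145 at 17 dpa and 100 at 28 dpa. The 17 dpa value was -0.70 as a mean over cells and -0.71 with no doublets removed. Dendritic-like cells had a log2 ratio of 1.67 at 17 dpa. Tenocyte-like cells had 0.76 at 28 dpa.

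Barcodes removed as doublets also carried a histone signal above that of kept cells. It was 906.6 CPM in the unamputated library, 779.5 at 12 dpa, 724.6 at 17 dpa and 811.3 at 28 dpa, against 422 to 545 in kept cells. These barcodes also had more UMIs, with medians of 11410.0 to 20453.5. With these barcodes kept, the log2 ratios of the summed histone genes at 12, 17 and 28 dpa were 0.13, 0.072 and 0.13.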

How the results depend on the processing

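No paired analysis was possible because there was 1 library per group. The log2 ratios of the summed histone genes stayed above 0 on all 3 days under every alternative tried, but their size moved. At 12, 17 and 28 dpa they were 0.13, 0.072 and 0.13 with no doublets removed, 0.31, 0.18 and 0.19 as a mean over cells, and 0.41, 0.26 and 0.21 under a stricter cell filter. A looser filter gave 0.35 at 12 dpa and 0.32 at 17 dpa, and leaving out genes of shared sequence gave 0.34 at 12 dpa and 0.30 at 28 dpa. In 3 alternatives chosen after seeing the data, they were 0.48, 0.37 and 0.38 without neutrophil-like and B-lineage-like cells, 0.54, 0.33 and 0.14 with classes weighted equally, and 0.20, 0.17 and 0.23 without Hist1h1e and Hist1h4d.

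The ratio of cells with 6 or more S-list UMIs to cells with none was 9.40, 10.9 and 13.9 in the unamputated, 12 and 17 dpa libraries when thinned to 2000 UMIs. It was 7.76, 8.37, 10.7 and 10.1 in the 4 libraries when thinned to 5000, and 7.83, 8.66, 10.3 and 10.4 with a longer S-phase list. Histone UMIs per S-list UMI were 0.527, 0.827, 0.733 and 0.80 with the longer list. They were 0.871, 1.30 and 1.32 in the unamputated, 12 and 28 dpa libraries under the looser filter, and 0.905, 1.43 and 1.25 in the unamputated, 12 and 17 dpa libraries under the stricter one.

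The direction turned in 3 values whose interval lay on 1 side of no difference. Fibroblast-like cells at 28 dpa had a log2 ratio of -0.14 with no doublets removed. The log2 ratio of S-high to S-zero cells was 0.0056 for Hist3h2a in the 17 dpa library alone and -0.38 for Hist1h4i in the 28 dpa library alone. Hist2h2be, whose interval spans equal levels, was at 0.04 in the pooled cells and at -0.06 and -0.24 in the unamputated and 12 dpa libraries alone. The causes were not tested. Between 49 and 50 genes were 2-fold or more higher in S-high cells under each alternative. Depth limits the 10 genes under 100 UMIs, for which no ratio is given.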
